A study of Homo sapiens with 8 samples.

Results

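The LSD1 inhibitor SP2509 was examined here as an addition to the G9a inhibitor UNC0642, by comparing Kyse510 cells that received both inhibitors with Kyse510 cells that received UNC0642 only. Kyse510 is an established human cell line of esophageal squamous cell carcinoma (ESCC). All genes with at least 1 FPKM (fragments on a gene, scaled by gene length and library total) in either of the 2 libraries were taken, which gave 13637 of the 31582 genes in the table of inhibitor libraries. Cells received 7 µM UNC0642 or both inhibitors for 2 days, and the labels give no separate dose for the combination. Cells with 7 µM SP2509 only for 2 days, and cells with vehicle (DMSO), were used for levels side by side and for the comparison of SP2509 against vehicle. For a few levels, Kyse510 cells with a short hairpin RNA against LSD1 (shLSD1) were used, without doxycycline or with doxycycline for 2 days to induce it. Total RNA was extracted, and how RNA was selected for the libraries is not given in the sources used here. Each condition has 1 library, and nothing says whether the libraries came from cultures grown side by side. No difference described here thus has a replicate check, and no test between conditions was possible.

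LSD1, encoded by KDM1A, removes methyl groups from histone H3 at lysine 4 and lysine 9, and acts within the CoREST complex as a corepressor of transcription. G9a, encoded by EHMT2, writes mono- and dimethylation at lysine 9 of the same histone, mainly in euchromatin, where it silences genes. Both enzymes can act on silencing at the same promoters, and both also have substrates other than histones. Squamous epithelium, from which this cell line derives, renews from basal cells that divide and express TP63, SOX2 and KRT5, while suprabasal cells leave the cell cycle and make the proteins of the cornified envelope.

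The reads behind each FPKM value were estimated from the steps in which the values fall. The library totals were 17889466 reads with UNC0642, 16880224 with both inhibitors, 17804295 with SP2509, and 15662035 with vehicle. A gene was called higher or lower when its fold change, computed as (FPKM + 1) with both inhibitors over (FPKM + 1) with UNC0642, reached 1.3 in either direction, the fold threshold that the study used. Log2 values below are on this scale, which understates the change of lowly expressed genes. Ratios of reads per library total are given with exact 95% (Clopper-Pearson) intervals, which cover counting error only. Of the genes taken, 11278 had at least 1 FPKM in both libraries, 1263 passed through the combination only, and 1096 passed through UNC0642 only. The 1263 thus had to be higher in the combination and the 1096 lower, whatever the size of the difference. Each gene taken and named below with less than 1 FPKM with UNC0642 or in the combination is of this kind. IL11, TXNIP and EGR3 are examples of the former, and CENPE and SOX2 of the latter. At the edge of this filter, AC026801.3 entered with 1.0001 FPKM with UNC0642, and CCDC78, which was just below 1 FPKM with both inhibitors and had 0.8088 with UNC0642, did not.

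The targets of the inhibitors were looked at first, although an inhibitor of an enzyme need not alter its mRNA. KDM1A measured 40.7 FPKM in the vehicle library, 36.2 in that of SP2509, 40.3 in that of UNC0642, and 32.0 in the combination, and was not called at a log2 fold change of -0.32. EHMT2 stood at 11.1 FPKM under vehicle, 10.2 under SP2509, 10.3 under UNC0642, and 5.38 under both inhibitors, which made it 1.91-fold lower in reads (interval 1.74 to 2.1) when SP2509 was added. Among 18 genes of the LSD1 and CoREST complex and its recruiters 3 were higher and 3 lower, and the largest difference was that of SNAI1, a zinc finger repressor that recruits LSD1, with 1.53 FPKM with UNC0642 and 14.5 with both. Of 14 genes for G9a, other lysine 9 methyltransferases and HP1 proteins, none was higher and 3 were lower (EHMT2, SETDB1 and ATF7IP).

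Adding SP2509 to UNC0642 was accompanied by 3780 higher genes, 27.7% of the genes taken, and 3697 lower genes, 27.1%. Counts from the gene lists, above and below, are to be read beside these shares. A fold change of at least 2 was reached by 1091 genes (8.0%) in the upward and 736 genes (5.40%) in the downward direction. The median log2 fold change of all genes taken was -0.006, and it was 0.025 over the 6149 genes at 5 FPKM or more in each library. Of the 11278 genes at 1 FPKM or more in each library, 2710 were higher and 2826 lower. Of the 7477 called genes, 6754 had a read ratio whose counting interval left out 1.

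**Figure D1:**
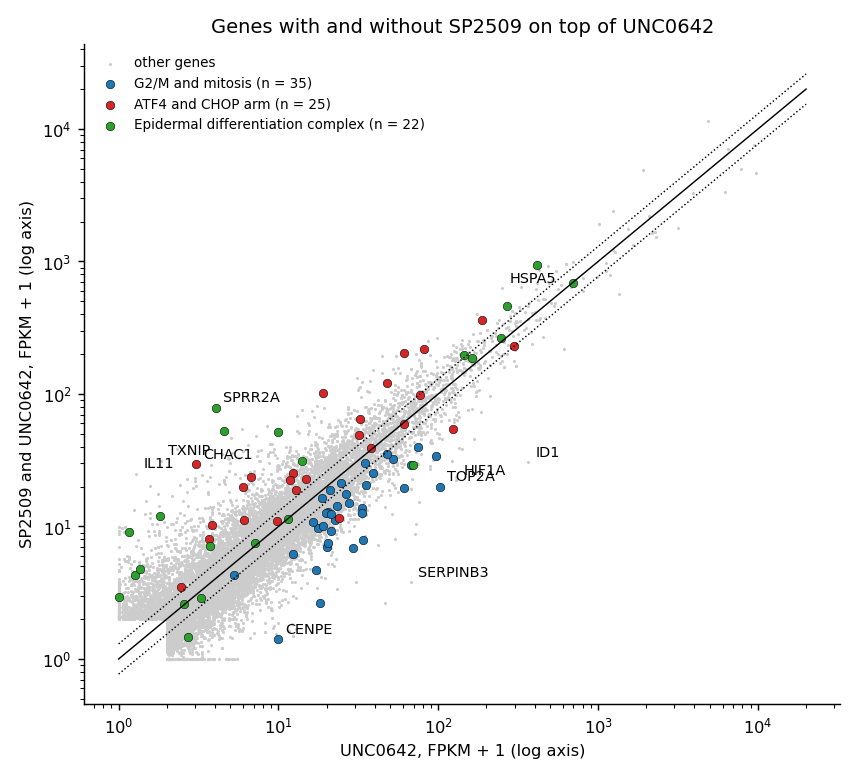
FPKM + 1 with UNC0642 (x axis) against FPKM + 1 with SP2509 and UNC0642 (y axis) on log axes, with 1 point per gene and the diagonal as a solid line between dotted lines at 1.3-fold. Genes of the ATF4 and CHOP arm and of the epidermal differentiation complex lie mostly above the diagonal, and all 35 genes of G2/M and mitosis lie below it.

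The 12 protein-coding genes with the largest increases were led by IL11, SPRR2A and TXNIP. IL11, a cytokine of the IL-6 family, measured 0.0478 FPKM in the vehicle library, 0.168 in that of SP2509, 0.293 in that of UNC0642, and 24.1 in the combination, and its read ratio against UNC0642 was 82.1 (interval 48.7 to 151). SPRR2A, a small proline-rich protein that is crosslinked into the cornified envelope, went from 3.07 FPKM with UNC0642 to 77.8 with both, and was at 0 with vehicle and 0.634 with SP2509. TXNIP, an inhibitor of thioredoxin and of glucose uptake, had 1.18, 1.98 and 0.848 FPKM with vehicle, SP2509 and UNC0642 and 30.3 with both. In these 3 genes the combination stood far above each of the other 3 libraries. IL23A, the specific subunit of interleukin 23, had 1.32 FPKM with UNC0642 and 37.4 with both, and IL1RL1, the receptor of interleukin 33, had 0.574 and 19.1. The others among the 12 largest increases were LCE3D, DCDC2C, SPANXN3, CHAC1, RAET1L, RFPL4A and AC233724.16. AC233724.16 had 0 reads with UNC0642 and 168 with both, so that it was at least 59.3-fold higher against a floor of 3 reads. RFPL4A had 1 read with UNC0642 and 154 with both, a read ratio of 163 with an interval of 28.9 to 6488. IL11, TXNIP, IL1RL1, DCDC2C, SPANXN3, RFPL4A and AC233724.16 passed the filter through the combination only and so had to be higher there.

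The largest decreases among protein-coding genes were led by TCIM, SERPINB3 and ID1. TCIM, a regulator of transcription, stood at 13.3 FPKM under vehicle, 38.4 under SP2509, 45.5 under UNC0642, and 1.63 under both inhibitors, 27.9-fold lower in reads than with UNC0642 (interval 21.1 to 37.6). SERPINB3, a squamous cell carcinoma antigen, had 9.81, 5.44, 66.0 and 2.80 FPKM in the same order, and its neighbour SERPINB4 had 5.20, 6.28, 71.4 and 9.48. For SERPINB3 and SERPINB4, UNC0642 only was the highest of the 4 libraries, as it was for IL33, GJB2, CP and CLCA2. These SERPINB genes are close paralogs, and how reads were divided between them is not given in the sources used here. ID1, an inhibitor of basic helix-loop-helix factors, differed in another way, with 344 FPKM under vehicle, 207 under SP2509, 364 under UNC0642, and 29.7 under both, 12.3-fold lower than with UNC0642 (interval 11.3 to 13.3). HIF1A, the oxygen-regulated transcription factor, had 123, 97.8, 128 and 21.4 FPKM in the same order. In both ID1 and HIF1A the combination was the lowest of the 4 libraries. CENPE and HMMR, both genes of the mitotic spindle, were also among the 12 largest decreases.

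Mitosis formed the most uniform group among the lists. Genes of G2/M and mitosis encode the cyclin B kinase, the kinesins and centromere proteins of the spindle, and the checkpoint that holds anaphase. All 35 were measured, 30 were lower with both inhibitors than with UNC0642, none was higher, and their median log2 fold change was -0.89, against -0.006 over all genes taken. In 32 of the 35 the combination was the lowest of the 4 libraries, which held for 25.7% of all genes taken. CENPE, a kinesin of the kinetochore, measured 10.2 FPKM in the vehicle library, 8.69 in that of SP2509, 8.87 in that of UNC0642, and 0.408 in the combination, which is 21.7-fold lower in reads than UNC0642 (interval 17.0 to 28.3). HMMR, a spindle assembly factor, had 17.4, 16.4, 17.2 and 1.63 FPKM and was 10.6-fold lower (interval 8.68 to 13). TOP2A, which untangles sister chromatids, had 100, 136, 101 and 19 FPKM. The vehicle, SP2509 and UNC0642 libraries were close to each other for CENPE and HMMR, and the combination stood apart. In bulk RNA, fewer dividing cells and less of these mRNAs per cell cannot be told apart. CENPF went from 28.2 to 5.89 FPKM, DLGAP5 from 32.7 to 6.90, PLK1 from 16.1 to 3.71, and CCNB1, the mitotic cyclin, from 60.3 to 18.4 as SP2509 was added. CDK1, the kinase partner of CCNB1, was not called, with 33.7 FPKM with UNC0642 and 29.2 with both. For SP2509 against vehicle the median of the same list was 0.17, with 10 genes higher and 2 lower.

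**Figure D2:**
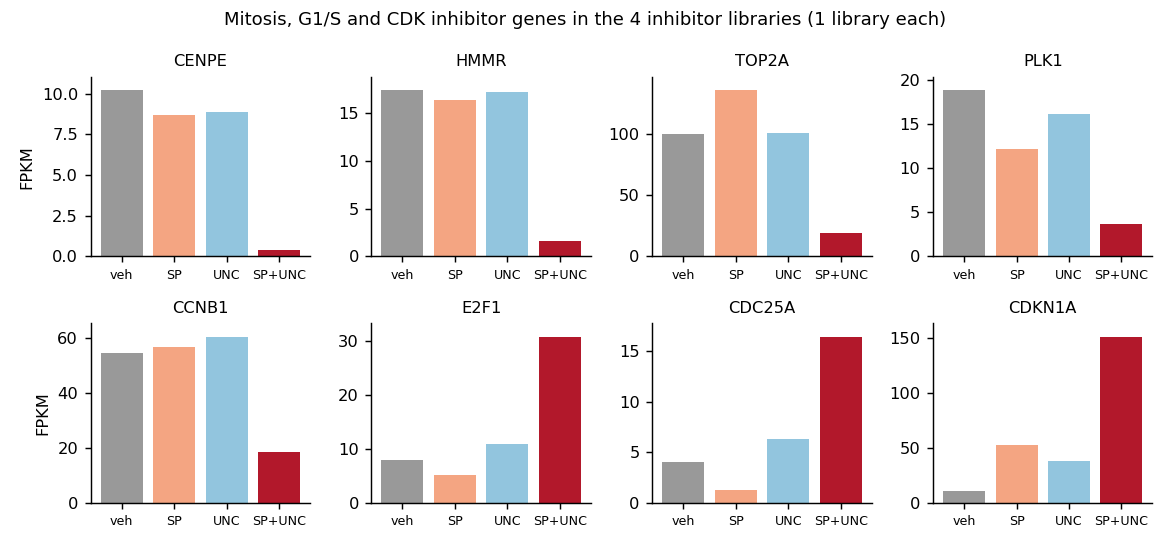
FPKM (y axis, from 0, own scale in each panel) of 8 cell cycle genes with vehicle (veh), SP2509 (SP), UNC0642 (UNC) and both inhibitors (SP+UNC), 1 bar per library. CENPE, HMMR, TOP2A, PLK1 and CCNB1 are lowest with both inhibitors, and E2F1, CDC25A and CDKN1A are highest there.

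The promoters of these mitotic genes were searched for a sequence known from late cell cycle genes. The cell cycle genes homology region (CHR), TTTGAA, is the element through which the DREAM and MuvB complexes hold late cell cycle genes silent or activate them. The 250 bases before the RefSeq (GRCh38.p14) start were searched on both strands. TTTGAA was found in 15 of the 28 mitotic promoters that could be matched (53.6%), in 13.6% of all 27305 promoters, in 10.7% of those of protein-coding genes called lower, and in 7.69% of those not called. CCAAT was found in 23 of the 28 (82.1%) and in 33.0% of all promoters. A match is a description of the letters, and binding was not measured. Since TTTGAA is a known element of such genes, its share describes the list and not the change with SP2509. HMMR is shown as the mitotic gene with 2 matches side by side and PLK1 as one with a single match, each from 250 bases to 1 base before its start in the direction of transcription, with TTTGAA in capitals. The HMMR stretch is chr5:163460382-163460631 on the plus strand and that of PLK1 is chr16:23678639-23678888 on the plus strand (GRCh38.p14), and both lie inside the span that the deposited table gives for the gene.
HMMR: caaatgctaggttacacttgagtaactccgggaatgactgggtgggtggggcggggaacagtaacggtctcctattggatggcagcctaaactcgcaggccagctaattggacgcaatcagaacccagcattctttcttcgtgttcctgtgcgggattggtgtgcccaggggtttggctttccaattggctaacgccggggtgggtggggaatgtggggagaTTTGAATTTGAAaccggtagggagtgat
PLK1: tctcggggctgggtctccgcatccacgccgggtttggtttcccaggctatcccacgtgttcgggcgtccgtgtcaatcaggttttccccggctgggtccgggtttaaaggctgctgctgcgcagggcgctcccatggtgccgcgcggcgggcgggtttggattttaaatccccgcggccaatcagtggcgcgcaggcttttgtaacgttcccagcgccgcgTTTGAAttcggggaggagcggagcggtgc

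Genes of the G1/S transition included both directions. Of 22 measured genes for G1/S cyclins, E2F factors and inhibitors of cyclin-dependent kinases, 10 were higher and 5 lower, with a median of 0.30. CDKN1A, the kinase inhibitor p21, stood at 10.8 FPKM under vehicle, 53 under SP2509, 38.0 under UNC0642, and 151 under both inhibitors, a read ratio of 3.97 against UNC0642 (interval 3.79 to 4.17). E2F1, an activator of S phase genes, had 7.86, 5.07, 11 and 30.8 FPKM, and CDC25A, a phosphatase that activates the G1/S kinases, had 4.06, 1.24, 6.31 and 16.4. Both the inhibitor CDKN1A and the activators E2F1 and CDC25A were thus highest with both inhibitors. CCNE1, cyclin E, went from 3.46 to 7.64 FPKM, while RBL2, the pocket protein p130, went from 8.90 to 3.01 and SKP2, which targets CDK inhibitors for degradation, from 30.9 to 14.9. Replication licensing and DNA synthesis split evenly, with 12 of 38 genes higher and 11 lower (median 0.10). CDC6, a licensing factor, went from 14.9 to 37.2 FPKM and FEN1, a flap nuclease, from 31.8 to 62.1, whereas MCM6 of the replicative helicase went from 29.5 to 15.1. Of 20 genes for DNA damage and recombination, none was higher and 9 were lower (median -0.34). The median genomic span of that list was 68516 bases, against 31918 over the protein-coding genes taken, and its median was -0.20 once the median of each class of span was set to 0. The mitotic list had a span of 29435 bases and a median of -0.93 under the same adjustment.

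The endoplasmic reticulum (ER) stress genes were higher with both inhibitors than with UNC0642 in the ATF4 branch. The unfolded protein response has 3 sensors, PERK (EIF2AK3), IRE1 (ERN1) and ATF6. PERK raises the translation of ATF4, which with its partner CHOP (DDIT3) drives genes of amino acid supply and of death, and XBP1 and ATF6 drive chaperones and degradation. Of 25 measured genes of the ATF4 and CHOP arm, 18 were higher and 2 lower, with a median of 0.92, against 27.7% higher and a median of -0.006 over all genes taken. CHAC1, a glutathione-degrading target of ATF4, measured 15.5 FPKM in the vehicle library, 0.737 in that of SP2509, 2.06 in that of UNC0642, and 28.4 in the combination, a read ratio of 13.8 against UNC0642 (interval 10.9 to 17.6). DDIT3 had 70.6, 17.3, 5.70 and 22.6 FPKM (ratio 3.97, interval 3.26 to 4.86), and ATF4 itself had 255, 210, 186 and 360. ATF3, a stress factor downstream of ATF4, had 17.4, 162, 18.1 and 100 FPKM. These genes did not share 1 order across the libraries. DDIT3 with both inhibitors stayed below vehicle, CHAC1 and ATF4 were above it, and ATF3 was highest with SP2509 only.

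Other targets of ATF4 were higher as well. PSAT1, of serine synthesis, went from 80.1 FPKM with UNC0642 to 217 with both inhibitors, against 327 with vehicle and 23.1 with SP2509. PPP1R15A, which restores translation by dephosphorylating eIF2, went from 59.7 to 202, SESN2, an inhibitor of mTORC1, from 4.99 to 18.7, and STC2, a secreted glycoprotein, from 47.1 to 119. TRIB3, a pseudokinase induced by CHOP, went from 13.8 to 22 FPKM and remained well below its 85.4 FPKM with vehicle. The 2 lower genes were SLC7A11, the cystine transporter, and DDIT4, an inhibitor of mTORC1 that is named here only to complete the count. Of the 18 higher genes, 10 were still at or below their level with vehicle, which held for 5.58% of all higher genes. Of 20 aminoacyl-tRNA synthetases, many of which are also targets of ATF4, 10 were higher and 5 lower (median 0.20). WARS, the tryptophanyl enzyme, went from 15.9 to 42.1 FPKM, and VARS, the valyl enzyme, from 21.8 to 7.80.

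**Figure D3:**
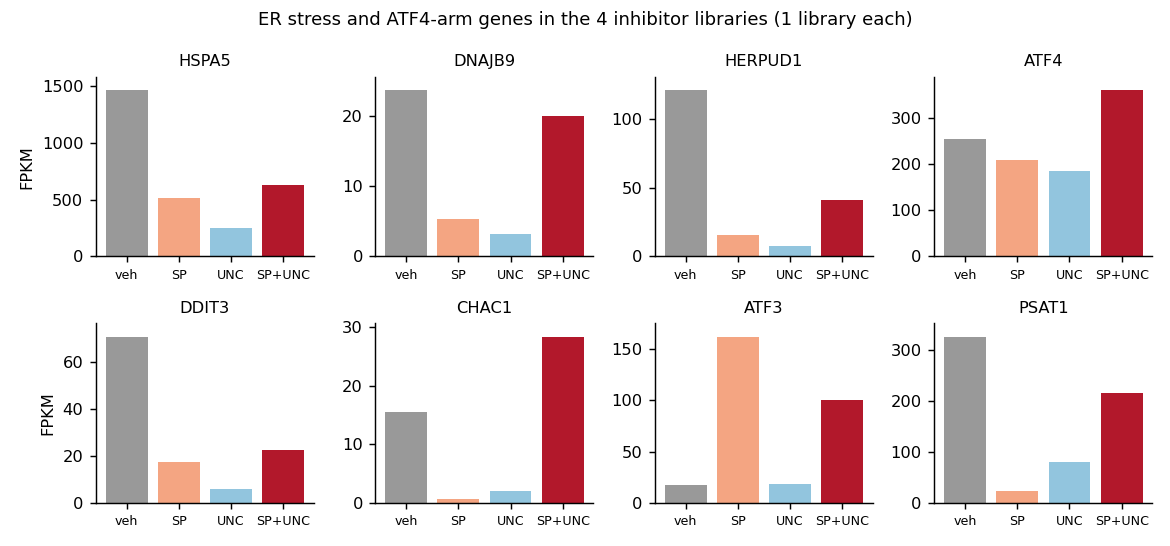
FPKM (y axis, from 0, own scale in each panel) of 8 ER stress and ATF4-arm genes with vehicle (veh), SP2509 (SP), UNC0642 (UNC) and both inhibitors (SP+UNC), 1 bar per library. All 8 genes are higher with both inhibitors than with UNC0642 only, and HSPA5, DNAJB9, HERPUD1, DDIT3 and PSAT1 stay below vehicle.

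Sensors and chaperones of the unfolded protein response were mixed. Of 25 genes, 11 were higher and 5 lower, with a median of 0.17. HSPA5 (BiP), the main chaperone of the ER lumen, stood at 1462 FPKM under vehicle, 511 under SP2509, 251 under UNC0642, and 627 under both inhibitors, a read ratio of 2.50 against UNC0642 (interval 2.46 to 2.54). DNAJB9, a cochaperone driven by IRE1 and XBP1, had 23.6, 5.31, 3.23 and 20 FPKM (ratio 6.18, interval 5.23 to 7.34). Of the sensors, EIF2AK3 went from 3.04 to 7.70 FPKM and ERN1 from 1.78 to 4.88, while ATF6 went from 12.6 to 9.42. EIF2AK3 and ERN1 were thus higher and ATF6 lower. In 9 of the 11 higher genes, the level with both inhibitors was at or below vehicle. Among 18 genes of ER-associated degradation, 4 were higher and 1 lower (median 0.30). The share of higher genes, 22.2%, was below the 27.7% of all genes taken. HERPUD1, a membrane protein of this pathway, stood out with 121, 15.7, 7.82 and 40.9 FPKM, a ratio of 5.23 (interval 4.83 to 5.68). All 3 lists had medians below -0.8 for SP2509 against vehicle, at -1.17 for the ATF4 and CHOP arm, -1.08 for sensors and chaperones, and -0.87 for ER-associated degradation.

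The ER stress promoters were searched in the same way for the elements of both branches. These are known elements of such genes, so their shares describe the lists and not the change with SP2509. The ER stress response element, which is CCAAT and CCACG with any 9 bases between them, was found in 22 of 27305 promoters (0.0806%) and in 7 of 24 matched promoters of sensors and chaperones (29.2%), namely CALR, CANX, CRELD2, ERO1B, HSP90B1, HSPA5 and XBP1. Of these 7, CRELD2 was lower, CANX and HSP90B1 were not called, and the other 4 were higher. The composite element of ATF4 and C/EBP proteins, TGATGNAA, was found in 3.19% of all promoters, in 3 of 20 matched promoters of the ATF4 and CHOP arm (ATF3, BCAT1 and CHAC1), in HERPUD1, and in 1.71% of promoters of protein-coding genes called higher against 1.14% of those not called. CHAC1, HERPUD1 and HSPA5 are shown because their levels carry the result above, with the element in capitals, read on the minus strand in CHAC1 and HERPUD1. The stretches are chr15:40953221-40953470 (plus strand), chr16:56931892-56932141 (plus strand) and chr9:125241344-125241593 (minus strand) of GRCh38.p14. The whole CHAC1 stretch and 94 bases of that of HERPUD1 lie inside the deposited span of the gene.
CHAC1: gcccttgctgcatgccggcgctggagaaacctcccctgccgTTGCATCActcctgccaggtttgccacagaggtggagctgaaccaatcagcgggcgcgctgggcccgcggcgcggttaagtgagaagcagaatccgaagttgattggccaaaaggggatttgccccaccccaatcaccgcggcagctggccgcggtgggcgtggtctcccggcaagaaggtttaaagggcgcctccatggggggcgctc
HERPUD1: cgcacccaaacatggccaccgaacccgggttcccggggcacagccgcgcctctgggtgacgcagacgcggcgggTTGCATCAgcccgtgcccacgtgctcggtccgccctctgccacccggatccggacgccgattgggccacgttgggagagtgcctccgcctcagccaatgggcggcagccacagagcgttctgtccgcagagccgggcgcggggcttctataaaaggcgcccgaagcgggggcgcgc
HSPA5: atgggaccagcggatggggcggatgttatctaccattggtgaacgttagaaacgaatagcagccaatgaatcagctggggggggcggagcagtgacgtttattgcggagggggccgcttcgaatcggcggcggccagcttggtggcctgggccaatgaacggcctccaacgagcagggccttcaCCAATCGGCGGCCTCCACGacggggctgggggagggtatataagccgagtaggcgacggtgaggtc

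Genes of squamous differentiation were higher mainly in the epidermal differentiation complex. The epidermal differentiation complex on chromosome 1 holds genes for cornified envelope precursors (SPRR, LCE, loricrin, involucrin) and S100 proteins. Of its 22 measured genes, 13 were higher and 2 lower, with a median of 0.85, and in 16 the combination was the highest of the 4 libraries, which held for 36.4% of all genes taken. A further 15 listed genes did not reach 1 FPKM in either library. SPRR2D had 3 reads with UNC0642 and 143 with both, a ratio of 50.5 (interval 16.9 to 248). LCE3D went from 3.56 to 51.7 FPKM, LCE3A from 0.828 to 11, and SPRR1A from 8.90 to 50.7, each at 0.236 FPKM or less with vehicle. Members such as SPRR2D, LCE3A, SPRR1B, LCE3E and SPRR2E passed the filter through the combination only and so had to be higher there. The counts and the median of this list include them, and so follow in part from the filter. IVL, involucrin, was not called, with 10.4 FPKM with UNC0642 and 10.3 with both. The SPRR2 and LCE3 genes are families of similar sequence, and reads may have been divided among them.

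Other genes of the cornified layer gave 12 higher and 8 lower of 24 (median 0.38). SBSN, suprabasin, measured 0.354 FPKM in the vehicle library, 0.905 in that of SP2509, 4.95 in that of UNC0642, and 53.6 in the combination, a ratio of 10.8 (interval 9.26 to 12.7). CLDN4, a tight junction claudin, had 16.4, 21.7, 29.9 and 131 FPKM, and KLK5, a peptidase of desquamation, had 8.61, 8.05, 5.21 and 23.5. These 3 were highest with both inhibitors, whereas SERPINB3, SERPINB4 and SERPINB13, inhibitors of peptidases, were the largest decreases of the list, and TGM1, the transglutaminase that crosslinks the envelope, went from 5.36 to 3.27. Among 18 keratins 5 were higher and 4 lower (27.8% and 22.2%, near the shares of all genes taken). KRT16, a keratin of stressed epidermis, went from 6.62 to 22.4 FPKM and KRT80 from 20.1 to 55.8, while the basal keratins KRT15 and KRT5 went from 54.6 to 17.3 and from 303 to 163. KRT14, the basal partner of KRT5, was not called, with 8.31 FPKM with UNC0642 and 10.1 with both, and neither were the suprabasal keratins KRT10 (4.90 and 5.44) and KRT13 (7.52 and 9.84) or FLG, filaggrin (1.55 and 1.62).

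The regulators of the squamous lineage followed both directions, with 7 of 26 higher and 10 lower (26.9% and 38.5%, median -0.05). TP63, the master factor of basal cells, stood at 79.1 FPKM under vehicle, 127 under SP2509, 62.6 under UNC0642, and 18.3 under both inhibitors, 3.41-fold lower than with UNC0642 (interval 3.26 to 3.58). SOX2, a lineage oncogene of ESCC, had 18.3, 0.313, 4.94 and 0.636 FPKM. JAG2, a Notch ligand of basal cells, went from 9.84 to 3.21. TP63 was thus lowest with both inhibitors, while SOX2 was lowest with SP2509 only. Some factors of suprabasal cells were higher, with KLF4 at 4.82, 10.9, 3.94 and 29.0 FPKM (ratio 7.37, interval 6.46 to 8.42), GRHL3 at 2.43, 2.30, 2.75 and 10.8, and SOX15 at 22.2, 15.5, 35.8 and 102. PRDM1 (BLIMP1) went from 1.96 to 5.94 FPKM. These factors are among the 7 higher genes of the list, and do not stand for all factors of suprabasal cells. Of the 7 measured markers used to check the squamous origin of the cells, none was higher and 4 were lower (KRT5, TP63, SOX2 and DSC3), and their summed level was 605 FPKM under vehicle, 955 under SP2509, 454 under UNC0642, and 242 under both. Markers of fibroblasts, leukocytes and endothelium were low, those of glandular epithelium were not, and COL1A2 was at 0 with UNC0642 and with both inhibitors. The summed level of 6 fibroblast markers was between 3.23 and 6.96 FPKM and that of 3 leukocyte markers was below 1 FPKM in all 4 libraries. The 4 endothelial markers summed to between 3.56 and 12.4 FPKM, mostly from CDH5, which went from 4.19 to 11.8 as SP2509 was added. Glandular markers summed to between 364 and 490 FPKM, with KRT8 higher, and with both inhibitors their sum of 438 exceeded the 242 of the squamous markers. Whether these shifts contribute to the results above was not tested.

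MIR205HG, the host transcript of a microRNA of basal squamous cells, was the largest decrease among noncoding genes. It measured 51.1 FPKM in the vehicle library, 3.53 in that of SP2509, 29.4 in that of UNC0642, and 2.81 in the combination, 10.5-fold lower than with UNC0642 (interval 8.92 to 12.3). The MIR205 gene inside it had 17 reads with UNC0642 and 1 with both, and the protocol in the labels names no selection of small RNAs, so these reads do not measure the mature products. The mature products, from chromosome 1 at 209432166 to 209432187 and 209432203 to 209432223 (plus strand, RefSeq, GRCh38.p14), are shown with bases 2 to 8, the seed that pairs with targets, in capitals, and they do not share a seed.
hsa-miR-205-5p: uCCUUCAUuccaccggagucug
hsa-miR-205-3p: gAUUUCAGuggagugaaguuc

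The ID and BMP genes also included both directions. BMP signals through SMAD factors to ID1 and ID3, with SMAD6 as feedback inhibitor. ID3 stood at 204 FPKM under vehicle, 376 under SP2509, 91.8 under UNC0642, and 30.6 under both inhibitors, and SMAD6 had 4.49, 2.31, 4.97 and 0.719, so that these targets were lowest with both inhibitors. The ligand BMP2 was instead higher, going from 12.3 to 33.5 FPKM, as were ID2 from 6.16 to 12.2 and the pseudoreceptor BAMBI from 6.47 to 14.5. In all, 5 of 13 genes were higher and 5 lower (median 0.04). Of 13 Wnt genes, 4 were higher and 6 lower. WNT5A, a noncanonical ligand, had 29.3, 1.44, 14.1 and 2.76 FPKM, and the antagonist DKK1 went from 26.3 to 70.8 and the receptor FZD7 from 5.23 to 19.3.

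Among genes of cell death, those of the BCL2 family were mostly higher. Of 17 BCL2 family genes, 12 were higher (70.6%, against 27.7% of all genes taken) and 1 lower, with a median of 0.72, and in 14 the combination was the highest of the 4 libraries. The higher genes included BH3-only activators of apoptosis. BMF measured 1.35 FPKM in the vehicle library, 1.54 in that of SP2509, 1.38 in that of UNC0642, and 7.73 in the combination, a ratio of 5.62 (interval 4.67 to 6.81). BBC3 (PUMA) had 3.23, 5.02, 2.83 and 9.30 FPKM, PMAIP1 (NOXA) had 22.2, 30.1, 21.1 and 48.0, and BCL2L11 (BIM) had 6.14, 3.73, 6.11 and 14.0. For each of these 4 genes the other 3 libraries lay below the combination. The survival factor MCL1 was higher too, at 154 FPKM with UNC0642 and 250 with both, and BCL2L1 was not called, with 17.4 and 16. Of 26 caspases, inhibitors of apoptosis and death receptors, 9 were higher and 4 lower (34.6% and 15.4%, median 0.00), a share of higher genes near that of all genes taken. The TRAIL receptor TNFRSF10A went from 7.65 to 16.7 FPKM, and the TNF receptor TNFRSF1A went from 28.8 to 13.2.

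Of 19 genes known as p53 targets, 10 were higher (52.6%, against 27.7% of all genes taken) and none lower (median 0.38). BTG2, an antiproliferative factor, went from 5.43 to 23.5 FPKM, TIGAR, which lowers glycolytic flux, from 4.66 to 12.3, and GADD45A, a stress sensor, from 23.7 to 57.5. MDM2, a further target of p53, went from 5.36 to 7.43 FPKM. Several genes of the list are also targets of ATF4 or are immediate early genes, and what part p53 had in these changes was not tested.

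Immediate early genes, which encode factors switched on early by growth and stress signals, were mostly higher. Of 23 immediate early and AP-1 genes, 16 were higher (69.6%, against 27.7% of all genes taken) and none lower, with a median of 0.90, and 7 were not called, among them FOS with 29.8 FPKM with UNC0642 and 27.5 with both. FOSB stood at 0.632 FPKM under vehicle, 13.4 under SP2509, 1.68 under UNC0642, and 22 under both inhibitors (ratio 13.1, interval 11.2 to 15.4). DUSP1, a phosphatase that limits MAP kinases, had 4.52, 115, 31.1 and 110 FPKM, and CYR61, a target of YAP, had 8.89, 439, 30.5 and 105. SP2509 only and the combination lay close for DUSP1, but SP2509 only was far higher for CYR61. EGR3 had 7 reads with UNC0642 and 664 with both, a ratio of 101 (interval 48.5 to 251). EGR3, which is counted among the 16, passed the filter through the combination only and so had to be higher there. For SP2509 against vehicle the median of this list was 2.26, with 20 of 22 genes higher. Among ERK feedback genes and EGF receptor ligands, 9 of 21 were higher and 6 lower (42.9% and 28.6%, median 0.22). HBEGF, a ligand, had 2.96, 10.9, 13.1 and 75.0 FPKM (ratio 5.72, interval 5.28 to 6.21). The ligand AREG went from 11.4 to 28.5, whereas the receptor EGFR went from 34.1 to 23.0. The ligand EREG was lower, with a log2 fold change of -0.81. The feedback genes themselves went both ways. SPRY1 went from 6.69 to 2.21 FPKM, while SPRY4, DUSP5, ETV5 and SPRY2 were higher (log2 fold changes 1.93, 1.13, 1.01 and 0.92). DUSP6 was not called (0.01).

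Of 27 mesenchymal and matrix genes, 19 were higher (70.4%, against 27.7% of all genes taken) and 3 lower (median 0.65). FN1, fibronectin, measured 3.33 FPKM in the vehicle library, 93.9 in that of SP2509, 6.07 in that of UNC0642, and 25.2 in the combination. MMP1, a collagenase, had 0.259, 0.399, 2.07 and 12.5 FPKM, and MMP3 went from 0.60 to 5.64. FN1 was highest with SP2509 only, while MMP1 and MMP3 were highest with both inhibitors. MMP3 passed the filter through the combination only and so had to be higher there. ITGB4, the hemidesmosome integrin, went from 73.7 to 28.7 FPKM.

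Innate immune genes were higher in part. Of 32 interferon-stimulated genes, 16 were higher and 4 lower, with a median of 0.40. ISG15, a ubiquitin-like modifier, stood at 3.12 FPKM under vehicle, 8.23 under SP2509, 6.76 under UNC0642, and 36.9 under both inhibitors (ratio 5.46, interval 4.46 to 6.73). ISG20, an exonuclease, had 0.269, 0.992, 0.926 and 9.74 FPKM, and IFI6 had 12.3, 25.6, 17.4 and 61.4. These 3 were highest with both inhibitors. ISG20 passed the filter through the combination only and so had to be higher there. Of 21 genes for MHC class I presentation and natural killer ligands, 10 were higher and 3 lower (median 0.32). ULBP2, a stress ligand of the NKG2D receptor, had 13.7, 42.4, 36.4 and 124 FPKM, ULBP3 went from 4.02 to 14.3 and MICB from 8.89 to 22, while ERAP1, which trims peptides for MHC class I, went from 11.5 to 5.53.

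The NF-kB cytokines diverged gene by gene, with 15 of 27 higher and 9 lower (median 0.58). The neutrophil chemokine CXCL1 measured 88.9 FPKM in the vehicle library, 24.3 in that of SP2509, 74.2 in that of UNC0642, and 14.2 in the combination, 5.22-fold lower than with UNC0642 (interval 4.62 to 5.91). CCL20, which draws cells with the receptor CCR6, had 36.1, 116, 120 and 30.1 FPKM, and CXCL8 had 29.1, 397, 153 and 74.4. Both were higher with either inhibitor only than with both. CSF2 (GM-CSF) went instead from 3.55 to 21.5 FPKM, IL6 from 1.84 to 8.96, and the secreted inhibitor of peptidases SLPI from 53 to 194.

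Sterol synthesis was lower in part. Of 27 genes for cholesterol synthesis and uptake, none was higher and 14 were lower (51.9%, against 27.1% of all genes taken), with a median of -0.40. SREBF1, a transcription factor of lipid synthesis, stood at 51.4 FPKM under vehicle, 15.7 under SP2509, 35.8 under UNC0642, and 13.6 under both inhibitors, 2.63-fold lower than with UNC0642 (interval 2.49 to 2.78). The list was likewise low for SP2509 against vehicle, with a median of -0.41, against -0.209 over all genes taken for that comparison.

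Of 22 NRF2 targets and metallothioneins, 3 were higher and 12 lower (54.5%, against 27.1% of all genes taken), with a median of -0.43. TKT, transketolase, went from 134 to 66.3 FPKM. The aldo-keto reductases AKR1B10 and AKR1C2 had 67.6 and 96.5 FPKM with UNC0642 and 21.9 and 32.7 with both. HMOX1, heme oxygenase, went the other way from 10.1 to 29.2 FPKM, as did OSGIN1 from 4.36 to 24.0 and TXNRD1, thioredoxin reductase, from 156 to 225. Reads of the AKR1C genes may be divided among paralogs. Of 29 genes of the hypoxia response and glycolysis 10 were higher and 2 lower (34.5% and 6.90%, median 0.18), against 27.7% and 27.1% of all genes taken. HIF1A itself was 5.99-fold lower in reads (interval 5.70 to 6.29). KDM3A, a histone demethylase induced by hypoxia, went from 10.3 to 29.7 FPKM, and SLC2A1, the glucose transporter GLUT1, from 255 to 159.

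Autophagy and heat shock genes were mostly higher or not called. Of 31 autophagy and lysosome genes, 14 were higher (45.2%, against 27.7% of all genes taken) and 2 lower (median 0.25). In 19 of them the combination was the highest of the 4 libraries. MAP1LC3B, which coats autophagosomes, measured 15.7 FPKM in the vehicle library, 12.3 in that of SP2509, 12.1 in that of UNC0642, and 51.2 in the combination (ratio 4.23, interval 3.96 to 4.51), and GABARAPL1, of the same family, went from 22.2 to 56.7. CTSB, a lysosomal protease, went from 161 to 75.7. Of 23 cytosolic heat shock genes, 11 were higher (47.8%, against 27.7% of all genes taken) and 2 lower (median 0.37). DNAJB1, a cochaperone of HSP70, went from 25.0 to 63.0 FPKM, HSPB8 from 8.21 to 35.6, and HSPB1, a small heat shock protein, from 99.6 to 45.9. Transcripts of the mitochondrial genome separated by type. The ribosomal RNAs MT-RNR1 and MT-RNR2 were higher, going from 1009 to 1930 and from 4887 to 11505 FPKM, and 7 of the other 13 genes were lower, among them MT-CO1 from 9700 to 4665 and MT-CO3 from 6202 to 3327. Reads on the mitochondrial genome made up 6.17% of assigned reads with UNC0642 and 5.44% with both. Of 30 genes of ribosome biogenesis, 5 were higher and 2 lower, and 23 were not called (median -0.06).

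Among long noncoding RNAs of stress and nuclear bodies 9 of 18 were higher and 3 lower (median 0.34). NEAT1, the scaffold of paraspeckles, stood at 31.9 FPKM under vehicle, 16.4 under SP2509, 40.8 under UNC0642, and 6.27 under both inhibitors, 6.52-fold lower than with UNC0642 (interval 6.24 to 6.80), and the imprinted H19 went from 87.6 to 26.2. The snoRNA hosts GAS5 and SNHG5 went from 45.1 to 86.8 and from 5.42 to 19.9 FPKM. LINC01133, a long noncoding RNA of squamous tissue, went from 1.68 to 17.2. The noncoding genes with the largest increases were AL451060.1, RNU7-71P, AC008440.3, AC091946.1 and AC003092.1, of which AL451060.1 went from 0.766 to 16.6 FPKM. RNU7-71P had 0 reads with UNC0642 and 9 with both, and RNU6-1016P and SNORD18, among the largest decreases, had 18 and 14 reads with UNC0642 and 1 each with both. KRT16P1, a keratin pseudogene that may take reads from KRT16, went from 11.8 to 0.699 FPKM while KRT16 was higher. Long intergenic noncoding RNAs as a class had 218 of 532 genes higher (41.0%) and 135 lower (25.4%), against 25.9% and 26.4% of protein-coding genes.

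The addition of SP2509 to UNC0642 and the addition of SP2509 to vehicle share no library, and were set side by side. Of the 13342 genes taken for SP2509 against vehicle, 21.0% were higher and 39.9% lower, and 8.25% and 13% at 2-fold or more. Their median log2 fold change was -0.209, beside which the list medians of that comparison are to be read. In 12178 genes with enough FPKM for either comparison, 918 were higher in both and 1691 lower in both, which is 31.9% and 48.6% of the genes called with UNC0642 present and 40.1% and 34.9% of those called in its absence. A further 891 genes were higher with UNC0642 present and lower in its absence, and 490 the reverse. Over these genes, 18.8% were higher and 39.8% lower in the absence of UNC0642. At a fold change of at least 2 these counts were 176, 165, 86 and 62. With the median of each comparison set to 0, the genes that were higher or lower in both came to 2576, against 2609. The lists differed in the same respect. Immediate early genes and mesenchymal genes were higher in both comparisons and cholesterol genes lower in both, whereas the ER stress lists and the mitotic list had medians of opposite sign, with no test of the difference. In the shLSD1 line, doxycycline induces a short hairpin RNA against LSD1 (KDM1A at 26.0 FPKM without and 6.29 with doxycycline for 2 days, 1 library each). There were 1.15 and 7.18 FPKM of TXNIP without and with doxycycline, 8.84 and 20.5 of CHAC1, 30.7 and 30.5 of TOP2A, and 475 and 642 of ID1. These genes were picked from those named above, and the shares over all genes of this pair are not given here.

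**Figure D4:**
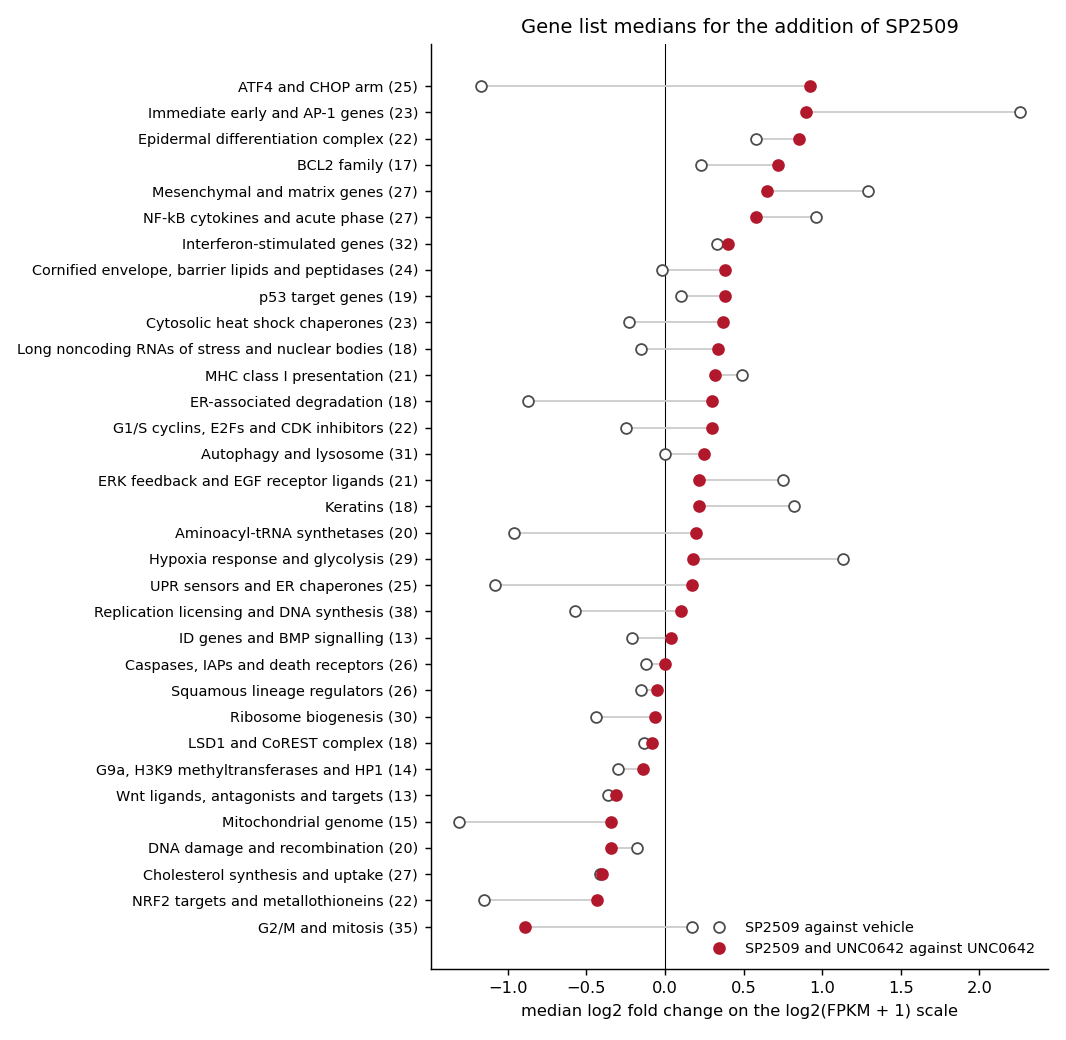
Median log2 fold change on the log2(FPKM + 1) scale (x axis) of each gene list (y axis, with the number of genes taken), filled for SP2509 and UNC0642 against UNC0642 and open for SP2509 against vehicle. The ATF4 and CHOP arm lies at 0.92 and -1.17, and G2/M and mitosis at -0.89 and 0.17.

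The calls also followed the length of the gene on the genome, a property chosen for description after the values were seen. Among 11003 protein-coding genes, the tenth with the shortest genomic span (207 to 5644 bases) had a median log2 fold change of 0.20, with 39.1% of genes higher and 18.7% lower. The median was 0.05 in the fifth decile and -0.33 in the tenth (148954 bases and more), where 10.9% were higher and 45.3% lower. For SP2509 against vehicle the medians of these deciles were -0.25, -0.24 and -0.04, so the long genes were not lower there than the short ones. Exonic length gave a smaller range, from 0.17 in the shortest to -0.20 in the longest decile. With genes split into 3 classes of equal size by each property, the class of long exonic length had a median of 0.04 for genes of short span and -0.21 for genes of long span, and in the class of highest FPKM these medians were 0.19 and -0.12. By chromosome, the median was highest on chromosome 19 at 0.27, with 306 of 727 protein-coding genes higher and 92 lower. Whether gene span contributes to the single results above was not tested, beyond the medians of the lists, which moved by at most 0.17 when the median of each span class was set to 0.

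**Figure D5:**
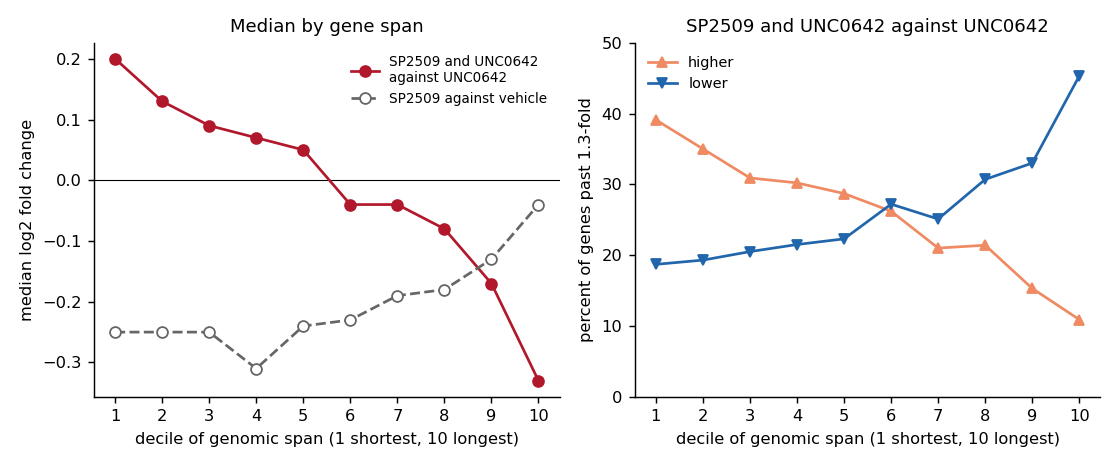
Left, median log2 fold change (y axis) by decile of genomic span of protein-coding genes (x axis) for SP2509 and UNC0642 against UNC0642 (filled) and SP2509 against vehicle (open). Right, percent of genes past 1.3-fold in each decile for SP2509 and UNC0642 against UNC0642, which falls from 39.1 to 10.9 for higher and rises from 18.7 to 45.3 for lower genes.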

How the data were processed

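RNA was sequenced as read pairs of 150 bases from 8 Kyse510 libraries, of which the 4 inhibitor libraries were used for the comparison, 1 per condition, and the shLSD1 pair for a few levels. The authors deposited FPKM values per gene, without counts. The paper states that reads were mapped to GRCh38, and the aligner and counter are not given in the sources used here. Reads per gene were estimated from the steps of the FPKM values and served only for the counting intervals. Groups followed the sample labels. Genes with at least 1 FPKM in either library were compared as log2(FPKM + 1), with a call at 1.3-fold in either direction. With 1 library per condition, no test was made. Named are KDM1A, EHMT2, the 12 coding and 5 noncoding genes of largest fold change in each direction with at least 5 FPKM in either library, and from each of the 33 gene lists and 5 marker lists up to 8 members of largest change plus the first 4. DDIT4 and the genes listed by promoter matches were named after their values were seen. The members and lists were chosen with earlier results of these data known. Of the listed symbols, 32 had no match in the table as spelled, some of them older names of genes that were also listed by their current name. Some named genes are not reported here. Promoter and microRNA sequences came from RefSeq (GRCh38.p14). Python 3.11.15, numpy 2.4.6, pandas 2.3.3 and scipy 1.17.1 were used.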

Additional observations from a re-analysis of the deposited data

Results flagged for a closer look

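The ATF4 and CHOP arm drew attention because its median log2 fold change for added SP2509 was 0.92 in the presence of UNC0642 and -1.17 in its absence, both past 1.3-fold and in opposite directions. The squamous epithelium markers did the same with the signs exchanged, with a median of -0.82 in the presence of UNC0642 and 0.68 in its absence. With 1 library per condition, neither difference was tested.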

How the results depend on the processing

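With at least 5 FPKM required in either library, 2207 genes were higher and 2002 lower, of 7687 genes, and the fewer genes follow from the filter itself. At a fold change of at least 2, 1091 were higher and 736 lower, and 341 genes had calls of equal direction with and without UNC0642. Under the other alternatives both counts stayed within 1.5 times their reported values, from 2845 (protein-coding genes only) to 5084 (no filter) for higher genes and from 2901 to 4682 for lower genes. With ratios centred on the median, 3596 were higher and 3919 lower. Of 34 list medians, 33 kept their sign under the 5 alternatives tried on them, 1 of which, centring classes of gene span, was chosen after seeing the data. The exception, the caspase list, went from 0.00 to -0.02 and -0.03 with centring and trimmed-mean scaling. With respect to 1.3-fold (0.38), 25 medians kept their side. The 9 others lay near it (heat shock, cornified envelope, DNA damage, p53, interferon, MHC class I, mitochondrial genome and noncoding RNA lists) or, for ID and BMP genes, went from 0.04 to 0.40 at 5 FPKM or more, where the cornified list went from 0.38 to 0.10. Span centring brought the p53 list from 0.38 to 0.23. Of the 358 named genes past the filter, 352 kept their call with centring and 352 with a pseudocount of 0.1. No paired analysis was possible because each condition has 1 library. Depth limits genes with few reads, and the intervals cover counting error only, so the spread between cultures is unknown.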

Other observations

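Some gene families were counted only after their values had been seen, so these are descriptions. Over all genes taken, 27.7% were higher and 27.1% lower, with a median log2 fold change of -0.006. The median over all genes taken for SP2509 against vehicle was -0.209. Of 83 cytosolic ribosomal protein genes, 49 were higher with both inhibitors than with UNC0642 and none was lower, with a median log2 fold change of 0.47, against 0.17 for SP2509 against vehicle. Of 22 replication-dependent histone genes, 16 were higher and 3 lower with a median of 0.92, against -0.78 over the 27 that passed the filter for SP2509 against vehicle. Histone mRNAs of this kind lack a poly(A) tail, and how RNA was selected for the libraries is not given in the sources used here. Of 20 snoRNA host genes, 12 were higher and 1 lower (median 0.47, against -0.48 for SP2509 alone). All 6 measured genes of the ULBP and RAET1 family, ligands of the NKG2D receptor on natural killer cells, were higher, with a median of 1.61. Of these, ULBP1 passed the filter through the combination only and so had to be higher there.

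Zinc finger (ZNF) genes gave 96 higher and 42 lower of 276 (median 0.19, against -0.41 for SP2509 alone), and many of them lie on chromosome 19. Subunits of the NADH dehydrogenase, complex I of the respiratory chain, gave 4 higher and 11 lower of 41, and mitochondrial ribosomal proteins 11 higher and 19 lower of 74. Of 36 proteasome subunits, 10 were higher and 2 lower. The shares of lower NADH dehydrogenase and mitochondrial ribosomal genes, and of higher proteasome genes, were near those of all genes taken.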
